A study of Mus musculus with 9 samples.

Results

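The 10 genes described here are classical markers and regulators of epithelial and mesenchymal cell state, chosen by gene symbol: Cdh1, Epcam, Esrp1 and Grhl2 on the epithelial side, and Cdh2, Vim, Fn1, Snai1, Zeb1 and Zeb2 on the mesenchymal side. All 10 were measured, each by 1 probe set that carries a single gene symbol, among 19938 genes on the array. Their values come from 9 microarrays of mouse pluripotent stem cells, 3 arrays for each of 3 cultures. Epiblast stem cells (EpiSCs) of strain CD1, a primed cell type that resembles the postimplantation epiblast, were kept in CHIR99021 and XAV939 (CHIR/XAV EpiSCs) or in FGF2 and activin (FGF2/activin EpiSCs). Embryonic stem cells (ESCs) of strain 129, a naive cell type that resembles the epiblast of the blastocyst, were kept in 2i. The labels list CHIR99021, an inhibitor of GSK3, at 3 µM, the MEK inhibitor PD0325901 at 1 µM, the tankyrase inhibitor XAV939 at 2 µM, and FGF2 and activin at 10 ng/ml each, without saying which sample received which. That 2i stands for CHIR99021 with PD0325901 follows common usage. The basal medium in the labels contained 10% serum for all samples.

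The tissue label reads embryonic stem cell for all samples, and the cell type was taken from the other labels. Strain and cell type go together, so in both comparisons with ESCs they cannot be told apart. Nor can cell type and the culture components that differ from those of ESCs, among them PD0325901. Whether the arrays of a group stand for separate cultures is not stated in the labels, and p-values therefore cover only how far the 3 arrays of a group spread, possibly for technical reasons. With 3 arrays a group, precision is limited. Values are log2 expression, on which 1 unit is 2-fold, with array medians of 5.57 to 5.65. Arrays of a group correlated at 0.996 to 0.998 across genes, which are not independent replicates. The cells carried the marker pattern of their labels: relative to ESCs, all 12 naive ESC genes were lower in CHIR/XAV EpiSCs. In FGF2/activin EpiSCs 11 were lower, and Klf5, named after its values were seen, was higher by 0.17, a call lost after quantile normalization. Of 10 primed epiblast genes 9 were higher in each EpiSC culture, or 7 in FGF2/activin EpiSCs after quantile normalization. Because RNA was taken from bulk cultures, fewer cells of a type and less RNA per cell cannot be told apart.

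E-cadherin (Cdh1) and N-cadherin (Cdh2) are transmembrane proteins that hold like cells together through calcium-dependent binding. In the epithelial-mesenchymal transition, the process by which mesoderm leaves the epiblast at gastrulation, cells replace E-cadherin by N-cadherin, while factors of the Snail and ZEB families bind E-box sequences and repress epithelial genes. Both the naive and the primed epiblast make E-cadherin, and the primed epiblast is organised as a polarised epithelium.

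All 4 epithelial genes were higher in both EpiSC cultures than in ESCs, 3 of them by about 5-fold, whereas the 6 mesenchymal genes split in both comparisons. In CHIR/XAV EpiSCs against ESCs, limma called 4 of 4 epithelial genes higher (Benjamini-Hochberg adjusted p under 0.05 over all genes). Across the array 46.7% of genes were called, 24.7% higher and 22.1% lower. Of the 6 mesenchymal genes 2 were called higher and 3 lower. In FGF2/activin EpiSCs against ESCs the 4 epithelial genes were again called higher, and the mesenchymal genes had 3 calls higher and 2 lower. Of all genes 61.3% were called in that comparison, 27.8% higher and 33.5% lower. The median difference from ESCs of the epithelial genes was 2.37 in CHIR/XAV EpiSCs and 2.30 in FGF2/activin EpiSCs, while over all genes it was -0.031 in CHIR/XAV EpiSCs and -0.082 in FGF2/activin EpiSCs. For the mesenchymal genes it was -0.22 in CHIR/XAV EpiSCs and 0.21 in FGF2/activin EpiSCs. At 2-fold or more, 3 epithelial genes were higher in CHIR/XAV EpiSCs, where 5.03% of all genes passed that size, and 4 in FGF2/activin EpiSCs, where 6.66% did. Mesenchymal genes lower by that size numbered 2 in CHIR/XAV EpiSCs (3.30% of all genes) and 1 in FGF2/activin EpiSCs (3.45%). Those higher by that size numbered 1 in CHIR/XAV EpiSCs (5.03%) and 2 in FGF2/activin EpiSCs (6.66%). For the 9 members called against ESCs in CHIR/XAV EpiSCs the arrays of the groups did not overlap, 6 lying above and 3 below, as was so for 53.2% of all genes (27.1% above and 26.1% below). For the 9 called in FGF2/activin EpiSCs, 7 lay above and 2 below, against 66.6% of all genes (29.6% above and 36.9% below). Both comparisons share the same ESC arrays.

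**Figure D1:**
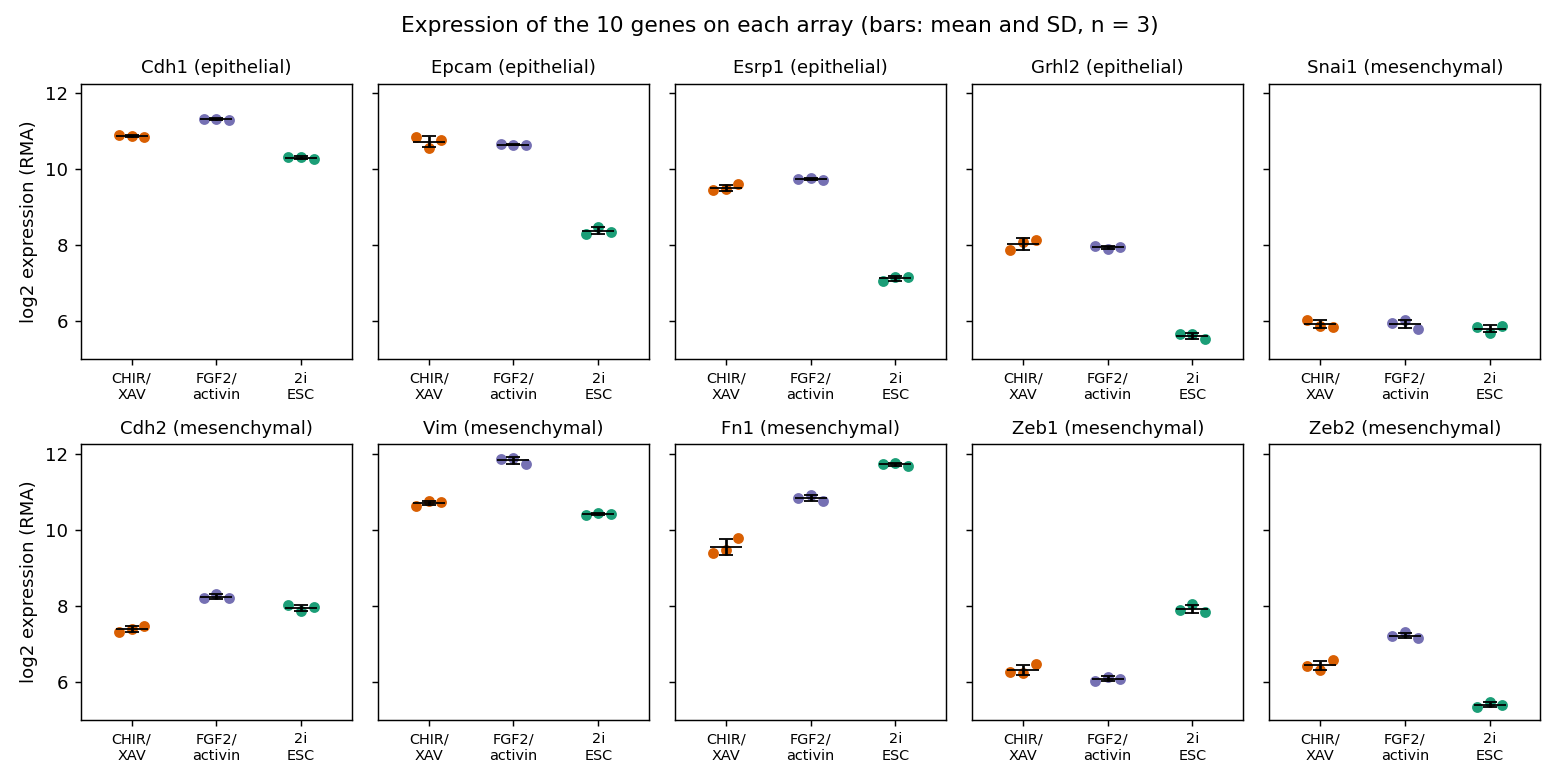
Log2 expression (vertical axis) of each of the 10 genes on each of 9 arrays, with CHIR/XAV EpiSCs, FGF2/activin EpiSCs and 2i ESCs from left to right; black bars give the mean and SD (n = 3). The 4 epithelial genes sit higher in both EpiSC cultures, Zeb1 sits lower and Zeb2 higher, and the 3 groups of Snai1 overlap.

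Cdh1, the cadherin of epithelial adherens junctions, was abundant in all cultures and highest in FGF2/activin EpiSCs. Its values were 10.91, 10.87 and 10.85 in CHIR/XAV EpiSCs, 11.33, 11.33 and 11.30 in FGF2/activin EpiSCs and 10.33, 10.33 and 10.26 in ESCs. The 3 groups did not overlap, and the arrays of a group lay within 0.07 of each other. Against ESCs, Cdh1 rose by 0.57 (SE 0.061, adjusted p = 2.14e-06, limma), or 1.49-fold, in CHIR/XAV EpiSCs. The rise in FGF2/activin EpiSCs was 1.02 (SE 0.061, adjusted p = 3.38e-09, limma), or 2.02-fold. These were moderate differences on this array, since 18.3% of all genes differed by more in CHIR/XAV EpiSCs and 9.87% in FGF2/activin EpiSCs. On each array Cdh1 ranked above about 95% of all genes or more, so its signal was well clear of the dim end.

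Epcam encodes an epithelial cell adhesion molecule that is also found on pluripotent cells. It had 10.84, 10.57 and 10.77 in CHIR/XAV EpiSCs, 10.67, 10.64 and 10.64 in FGF2/activin EpiSCs and 8.30, 8.48 and 8.35 in ESCs. The EpiSC cultures overlapped each other and both lay above ESCs. The rise over ESCs was 2.35 (SE 0.079, adjusted p = 9.11e-12, limma), or 5.09-fold, in CHIR/XAV EpiSCs and 2.27 (SE 0.079, adjusted p = 9.46e-12, limma), or 4.83-fold, in FGF2/activin EpiSCs.

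Esrp1, an RNA-binding protein that sets epithelial patterns of alternative splicing, behaved alike. Its values were 9.46, 9.48 and 9.60 in CHIR/XAV EpiSCs, 9.73, 9.77 and 9.71 in FGF2/activin EpiSCs and 7.05, 7.16 and 7.17 in ESCs. All 3 groups were apart, the EpiSC cultures by little. Esrp1 rose over ESCs by 2.39 (SE 0.067, adjusted p = 1.37e-12, limma), or 5.23-fold, in CHIR/XAV EpiSCs and by 2.61 (SE 0.067, adjusted p = 3.75e-13, limma), or 6.11-fold, in FGF2/activin EpiSCs. The array summaries used here give 1 value per gene and do not report which Esrp1-dependent exons were used.

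Grhl2 encodes a Grainyhead transcription factor that activates Cdh1 and other junction genes in epithelia. It had 7.86, 8.09 and 8.14 in CHIR/XAV EpiSCs, 7.98, 7.90 and 7.96 in FGF2/activin EpiSCs and 5.65, 5.65 and 5.52 in ESCs. The ESC values lay near the array median, so that a fold change against them may be understated. Grhl2 rose by 2.42 (SE 0.080, adjusted p = 7.52e-12, limma), or 5.36-fold, in CHIR/XAV EpiSCs and by 2.34 (SE 0.080, adjusted p = 8.09e-12, limma), or 5.05-fold, in FGF2/activin EpiSCs. The gene lies on chromosome 15, on which the 473 brighter genes had a median difference from ESCs of 0.37 in CHIR/XAV EpiSCs and 0.10 in FGF2/activin EpiSCs. The 4 genes nearest to Grhl2 had a median of -0.17 in both EpiSC cultures. Over 20 brighter neighbours, a choice made after the data were seen, it was 0.27 in CHIR/XAV EpiSCs and 0.29 in FGF2/activin EpiSCs. Between the EpiSC cultures the median of the brighter chromosome 15 genes was 0.20 in CHIR/XAV relative to FGF2/activin. A part of the chromosome in the differences of Grhl2 was not tested.

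Promoter sequence was used for 4 of the 10 members, Epcam on the epithelial side and Vim, Snai1 and Zeb2 on the mesenchymal side (RefSeq, GRCm38.p6). The promoters of the other members were not examined. The sequences of Epcam and Snai1 are shown because they hold the E-box letters CACCTG or CAGGTG, the same motif read on either strand, that Snail and ZEB factors recognise, and that of Vim because it holds none. Capitals mark these letters in the 250 bases before the annotated start, on the plus strand at chr17:87635729-87635978 for Epcam, chr2:167537945-167538194 for Snai1 and chr2:13574061-13574310 for Vim.
Epcam: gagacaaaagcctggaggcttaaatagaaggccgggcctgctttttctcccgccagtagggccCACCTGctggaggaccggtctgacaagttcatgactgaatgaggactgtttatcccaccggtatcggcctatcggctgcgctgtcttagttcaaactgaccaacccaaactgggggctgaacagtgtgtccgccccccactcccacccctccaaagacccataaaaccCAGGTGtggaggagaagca
Snai1: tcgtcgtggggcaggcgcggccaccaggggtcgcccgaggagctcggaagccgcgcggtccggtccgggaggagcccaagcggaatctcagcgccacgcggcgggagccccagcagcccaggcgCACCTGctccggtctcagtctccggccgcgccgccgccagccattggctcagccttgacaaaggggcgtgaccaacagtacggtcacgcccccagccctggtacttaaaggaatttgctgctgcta
Vim: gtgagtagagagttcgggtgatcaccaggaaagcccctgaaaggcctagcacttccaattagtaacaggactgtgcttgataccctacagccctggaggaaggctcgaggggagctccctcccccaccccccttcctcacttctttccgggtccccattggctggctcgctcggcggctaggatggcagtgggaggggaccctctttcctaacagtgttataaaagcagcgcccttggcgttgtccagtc

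The Epcam promoter held the motif at 187 and at 19 bases before the start, and the Snai1 promoter at 126 bases. None of the 4 annotated starts of Zeb2 had it in this window. Among 32851 promoter windows of the same length, 17.2% held at least 1 such motif and 2.06% at least 2. A match of letters is a description and shows no binding.

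Cdh2, the cadherin of mesoderm and neural tissue, moved in opposite directions in the EpiSC cultures. It had 7.31, 7.40 and 7.48 in CHIR/XAV EpiSCs, 8.20, 8.32 and 8.20 in FGF2/activin EpiSCs and 8.02, 7.87 and 7.97 in ESCs. CHIR/XAV EpiSCs were lowest and FGF2/activin EpiSCs highest, with no overlap between any of the groups. Against ESCs, Cdh2 fell by 0.56 (SE 0.072, adjusted p = 1.61e-05, limma) in CHIR/XAV EpiSCs. In FGF2/activin EpiSCs it rose by 0.29 (SE 0.072, adjusted p = 0.00368, limma), a small change that fell to 0.10 (adjusted p = 0.225, limma) after quantile normalization and then missed the threshold. Over the array, 45.8% of genes differed by more than this in that comparison.

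Within each array the difference between Cdh1 and Cdh2 was larger in EpiSCs than in ESCs. Levels of different probe sets are not comparable, so only the shift of this difference between cultures can be read. It was 3.60, 3.46 and 3.37 in CHIR/XAV EpiSCs, 3.12, 3.01 and 3.10 in FGF2/activin EpiSCs and 2.30, 2.46 and 2.29 in ESCs. Relative to ESCs the balance lay 1.13 log2 units, or 2.19-fold, further towards Cdh1 in CHIR/XAV EpiSCs, and 0.73 units, or 1.66-fold, further in FGF2/activin EpiSCs. In CHIR/XAV EpiSCs Cdh1 was higher and Cdh2 lower than in ESCs, while in FGF2/activin EpiSCs both were higher, Cdh1 by more. No test was run on this difference, and after quantile normalization the FGF2/activin shift was 0.85.

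**Figure D2:**
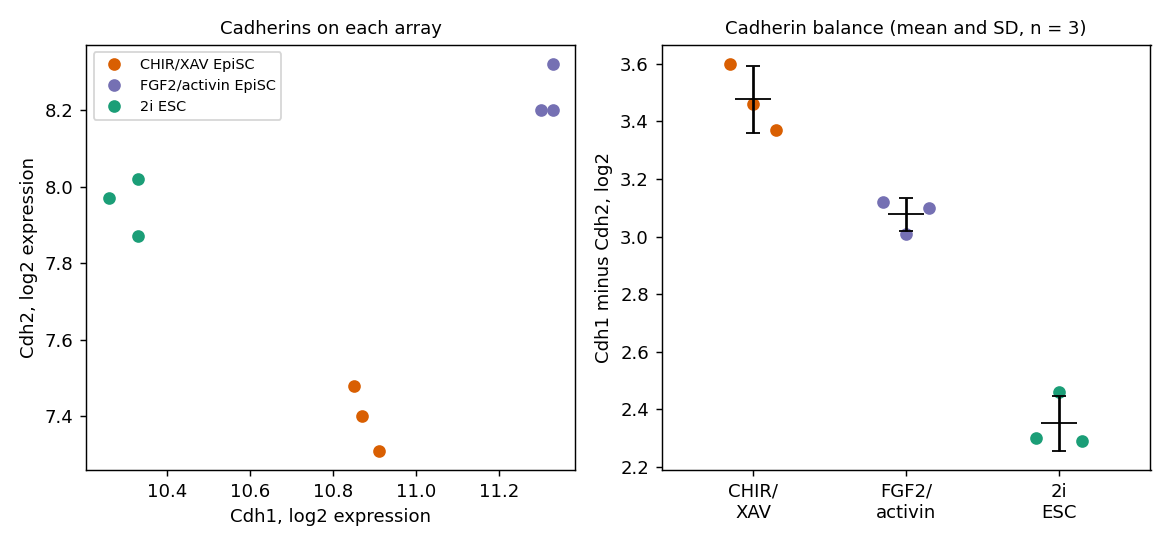
Left, Cdh2 against Cdh1 (log2 expression, 1 point per array); right, Cdh1 minus Cdh2 in log2 units on each array with the mean and SD (n = 3) of CHIR/XAV EpiSCs, FGF2/activin EpiSCs and 2i ESCs. The balance averaged 3.48 ± 0.12 in CHIR/XAV EpiSCs, 3.08 ± 0.06 in FGF2/activin EpiSCs and 2.35 ± 0.09 in ESCs, and the right-hand axis does not start at 0.

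Vim encodes vimentin, the intermediate filament of mesenchymal cells. Its values were 10.64, 10.75 and 10.73 in CHIR/XAV EpiSCs, 11.87, 11.90 and 11.73 in FGF2/activin EpiSCs and 10.40, 10.44 and 10.41 in ESCs. FGF2/activin EpiSCs stood apart above the other groups, which did not overlap each other either. Vim rose over ESCs by 0.29 (SE 0.068, adjusted p = 0.00243, limma) in CHIR/XAV EpiSCs and by 1.42 (SE 0.068, adjusted p = 2.85e-10, limma), or 2.68-fold, in FGF2/activin EpiSCs.

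Fn1, which encodes the matrix protein fibronectin, fell in both. It had 9.38, 9.46 and 9.78 in CHIR/XAV EpiSCs, 10.84, 10.92 and 10.76 in FGF2/activin EpiSCs and 11.74, 11.77 and 11.69 in ESCs. ESCs were highest and CHIR/XAV EpiSCs lowest, without overlap, and the CHIR/XAV arrays spread more than those of the other groups (SD 0.21, against 0.08 in FGF2/activin EpiSCs and 0.04 in ESCs). The fall of Fn1 in CHIR/XAV EpiSCs was -2.19 (SE 0.092, adjusted p = 9.87e-11, limma), a 4.57-fold difference, and in FGF2/activin EpiSCs Fn1 was 1.86-fold lower, at -0.90 (SE 0.092, adjusted p = 1.32e-06, limma). Vim and Fn1, both textbook mesenchymal markers, thus differed from ESCs in opposite directions.

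The repressors did not move as a group. Snai1, a Snail-family zinc-finger repressor of Cdh1 needed for gastrulation, lay close to the array median and did not pass the test in any comparison. It had 6.04, 5.86 and 5.85 in CHIR/XAV EpiSCs, 5.96, 6.02 and 5.80 in FGF2/activin EpiSCs and 5.85, 5.69 and 5.86 in ESCs. The groups overlapped. The difference from ESCs was 0.12 in CHIR/XAV EpiSCs (95% interval -0.06 to 0.29, adjusted p = 0.273, limma) and 0.13 in FGF2/activin EpiSCs (95% interval -0.05 to 0.30, adjusted p = 0.188, limma). Between the EpiSC cultures it was -0.01 (95% interval -0.19 to 0.16, adjusted p = 0.923, limma). At this brightness a value cannot be told from background, because detection calls were not used here, so the intervals bound the measured signal and not the gene's true change.

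Zeb1, a zinc-finger homeobox repressor of epithelial genes, was lower in both EpiSC cultures. Its values were 6.26, 6.22 and 6.47 in CHIR/XAV EpiSCs, 6.01, 6.14 and 6.08 in FGF2/activin EpiSCs and 7.88, 8.05 and 7.85 in ESCs. ESCs stood well above both EpiSC cultures, whose values lay little above those of Snai1, so that the fold change may be understated. Relative to ESCs, Zeb1 fell 3.05-fold in CHIR/XAV EpiSCs, a difference of -1.61 (SE 0.082, adjusted p = 7.88e-10, limma), and in FGF2/activin EpiSCs it was 3.59-fold lower, at -1.85 (SE 0.082, adjusted p = 1.3e-10, limma). The 4 genes nearest to Zeb1 on chromosome 18 had median differences of -0.09 in CHIR/XAV EpiSCs and -0.10 in FGF2/activin EpiSCs. Over 18 brighter neighbours the median was 0.29 in CHIR/XAV EpiSCs and 0.42 in FGF2/activin EpiSCs, so the sign of the neighbours' small shift depends on which are counted.

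Zeb2, its close paralogue, did the reverse. It had 6.41, 6.32 and 6.57 in CHIR/XAV EpiSCs, 7.20, 7.30 and 7.16 in FGF2/activin EpiSCs and 5.33, 5.46 and 5.40 in ESCs. No groups overlapped, and ESCs lay below the array median. Zeb2 rose by 1.03 (SE 0.077, adjusted p = 5.06e-08, limma), or 2.05-fold, in CHIR/XAV EpiSCs and by 1.82 (SE 0.077, adjusted p = 8.01e-11, limma), or 3.53-fold, in FGF2/activin EpiSCs. Zeb1 and Zeb2 therefore differed from ESCs in opposite directions in both comparisons, and they did so under every alternative processing tried.

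**Figure D3:**
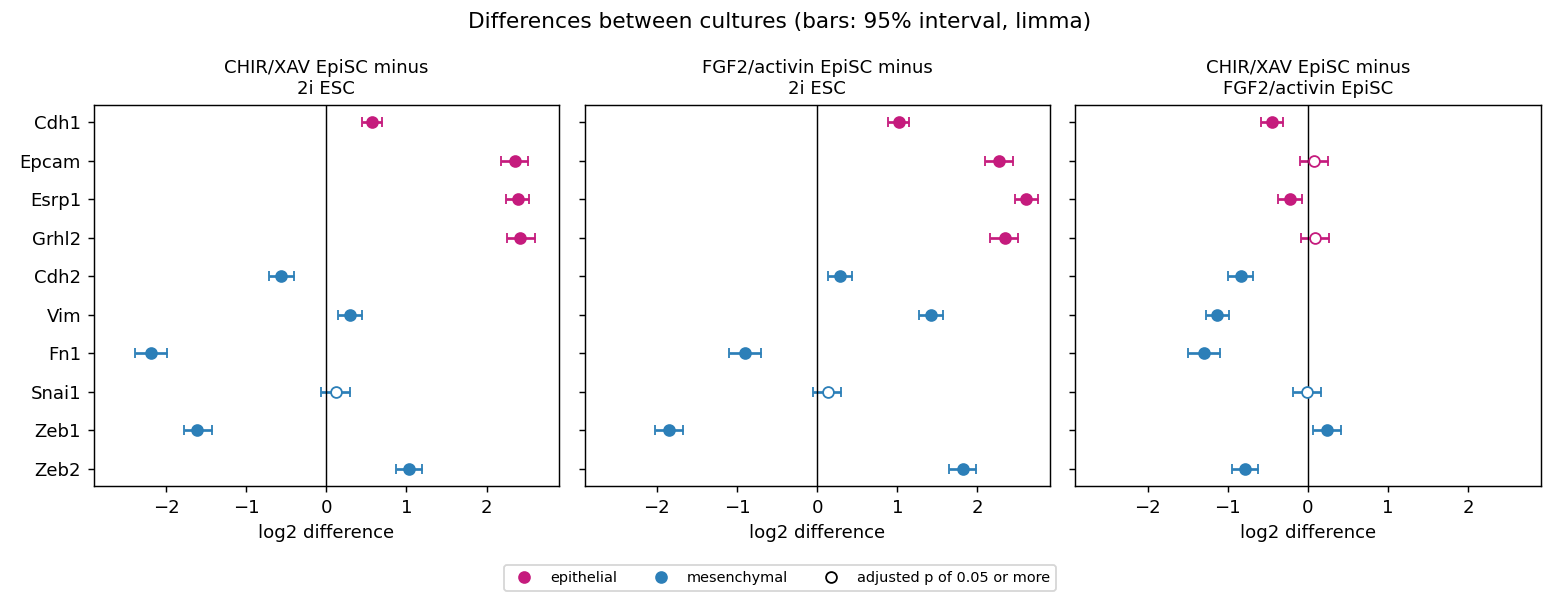
Log2 difference (horizontal axis) of each gene in CHIR/XAV EpiSCs minus 2i ESCs, FGF2/activin EpiSCs minus 2i ESCs and CHIR/XAV minus FGF2/activin EpiSCs; bars are 95% intervals of limma and open points did not pass an adjusted p of 0.05. Epcam, Esrp1 and Grhl2 lie between 2.27 and 2.61 in the comparisons with ESCs, and Vim, Fn1, Cdh2 and Zeb2 lie below 0 in the last panel.

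The miR-200 family of microRNAs is known to repress Zeb1 and Zeb2, and ZEB factors repress the family's genes in return. The mature 3p sequences (RefSeq, GRCm38.p6) are shown because their seeds, bases 2 to 8 in capitals, decide which targets they pair with. All lie on the minus strand, miR-200b, miR-200a and miR-429 at chr4:156055685-156055706, chr4:156054911-156054932 and chr4:156053916-156053937, and miR-200c and miR-141 at chr6:124718324-124718346 and chr6:124717917-124717938. They form 2 seed groups that differ at 1 letter, with 3 and 2 members.
miR-200b-3p: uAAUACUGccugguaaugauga
miR-200c-3p: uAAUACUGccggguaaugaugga
miR-429-3p: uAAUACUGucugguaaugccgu
miR-200a-3p: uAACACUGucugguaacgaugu
miR-141-3p: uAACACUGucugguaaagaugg

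The array measured the genes of 4 of these, since the probe set of Mir429 carries several symbols, and their signals were dim in all cultures. Mir200c had 4.77, 4.73 and 4.85 in CHIR/XAV EpiSCs, 4.67, 4.45 and 4.69 in FGF2/activin EpiSCs and 5.03, 4.92 and 5.02 in ESCs. Mir200a had 5.23, 5.19 and 5.13 in CHIR/XAV EpiSCs, 4.89, 4.99 and 5.16 in FGF2/activin EpiSCs and 5.42, 5.33 and 5.32 in ESCs. ESCs were highest for both, by small margins. Against ESCs, in FGF2/activin EpiSCs Mir200a fell by 0.34 (adjusted p = 0.00153, limma) and Mir200c by 0.39 (adjusted p = 0.000711, limma), while Mir200b rose by 0.28 (adjusted p = 0.0176, limma). The call of Mir200b held under 14 of 17 alternatives other than the test against a minimum fold. Centring on the median of the 19938 genes was among those that lost it. Of these 4 genes only Mir200c was called in CHIR/XAV EpiSCs, at -0.21 (adjusted p = 0.041, limma), and the call held under 9 of 17 alternatives other than the test against a minimum fold, quantile normalization (adjusted p = 0.0859, limma) and median centring being among those that lost it. Such values below the array median may be background, and mature microRNA was not measured.

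The third comparison sets the EpiSC cultures against each other, in the same strain. CHIR99021 with XAV939 and FGF2 with activin change together in it, so their parts cannot be told apart. Here 4 mesenchymal genes were lower in CHIR/XAV than in FGF2/activin EpiSCs and 1 was higher, while 2 epithelial genes were lower and 2 did not pass the test. Across the array 41.6% of genes were called, 21.1% lower and 20.5% higher. By 2-fold or more, 2 members were lower (2.50% of all genes) and 0 higher (1.62%). The median difference was -0.81 for the 6 mesenchymal genes and -0.07 for the 4 epithelial genes, against 0.048 over all genes.

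Fn1 was 2.46-fold lower in CHIR/XAV than in FGF2/activin EpiSCs, a difference of -1.30 (SE 0.092, adjusted p = 6.47e-08, limma), and Vim 2.18-fold lower, a difference of -1.13 (SE 0.068, adjusted p = 1.18e-08, limma). Only 2.10% of all genes differed by more than Fn1 between the EpiSC cultures, and 3.12% by more than Vim. Cdh2 fell by 0.84 (SE 0.072, adjusted p = 4.16e-07, limma) and Zeb2 by 0.78 (SE 0.077, adjusted p = 1.77e-06, limma). For each of these 4 genes the 3 CHIR/XAV values lay below all 3 FGF2/activin values, as they did for Cdh1 and Esrp1 and for 24.6% of all genes. The 3 CHIR/XAV values of Zeb1 lay above, as for 27.4% of all genes, and 52.0% of all genes did not overlap in one direction or the other. Zeb1 was higher by 0.24 (SE 0.082, adjusted p = 0.0322, limma), which missed the threshold under median centring (adjusted p = 0.0673, limma).

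Of the epithelial genes, Cdh1 fell by 0.45 (SE 0.061, adjusted p = 4.07e-05, limma) in CHIR/XAV relative to FGF2/activin EpiSCs. Esrp1 fell by 0.22 (SE 0.067, adjusted p = 0.016, limma), and missed the threshold after quantile normalization (adjusted p = 0.0676, limma). Epcam differed by 0.08 (95% interval -0.10 to 0.25, adjusted p = 0.476, limma) and Grhl2 by 0.09 (95% interval -0.09 to 0.26, adjusted p = 0.416, limma). Grhl2 passed after quantile normalization, at 0.24 (adjusted p = 0.025, limma). The Cdh1 to Cdh2 balance lay 0.40 units, or 1.32-fold, further towards Cdh1 in CHIR/XAV than in FGF2/activin EpiSCs, or 0.28 units after quantile normalization.

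Most further epithelial genes were higher in both EpiSC cultures, with a minority lower. Of 37 measured, 24 rose and 6 fell in CHIR/XAV EpiSCs against ESCs (median 0.76), and 24 rose and 8 fell in FGF2/activin EpiSCs (median 0.99). Between the EpiSC cultures 8 were higher and 19 lower in CHIR/XAV (median -0.26). Over the array, 24.7% of genes rose and 22.1% fell in CHIR/XAV EpiSCs, and 27.8% rose and 33.5% fell in FGF2/activin EpiSCs. Between the EpiSC cultures 20.5% of all genes were higher and 21.1% lower in CHIR/XAV. In FGF2/activin EpiSCs against ESCs the 3 largest rises of this list were those of Krt19, Krt18 and Krt8, keratins of simple epithelia. Krt19 had 8.10 in CHIR/XAV EpiSCs, 10.30 in FGF2/activin EpiSCs and 5.08 in ESCs, a rise over ESCs of 3.02 in CHIR/XAV EpiSCs (adjusted p = 8.18e-12, limma) and 5.22 in FGF2/activin EpiSCs (adjusted p = 2.68e-14, limma). Krt18 rose by 1.23 in CHIR/XAV EpiSCs and 3.95 in FGF2/activin EpiSCs, and Krt8 by 1.63 in CHIR/XAV EpiSCs and 3.79 in FGF2/activin EpiSCs. Krt8, Krt18 and Krt19 were all lower in CHIR/XAV than in FGF2/activin EpiSCs, with differences of -2.72 to -2.16. Mal2 and Ap1m2, genes of epithelial membrane traffic named after their values were seen, differed otherwise. Mal2 rose by 3.45 in CHIR/XAV EpiSCs (adjusted p = 8.5e-14, limma), more than Krt19 did there, and by 2.71 in FGF2/activin EpiSCs. Ap1m2 rose by 1.67 in CHIR/XAV EpiSCs and fell by 1.22 in FGF2/activin EpiSCs, and it was higher by 2.89 in CHIR/XAV than in FGF2/activin EpiSCs (adjusted p = 3.81e-12, limma). Krt8 and Krt18 lie, like Grhl2, on chromosome 15.

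**Figure D4:**
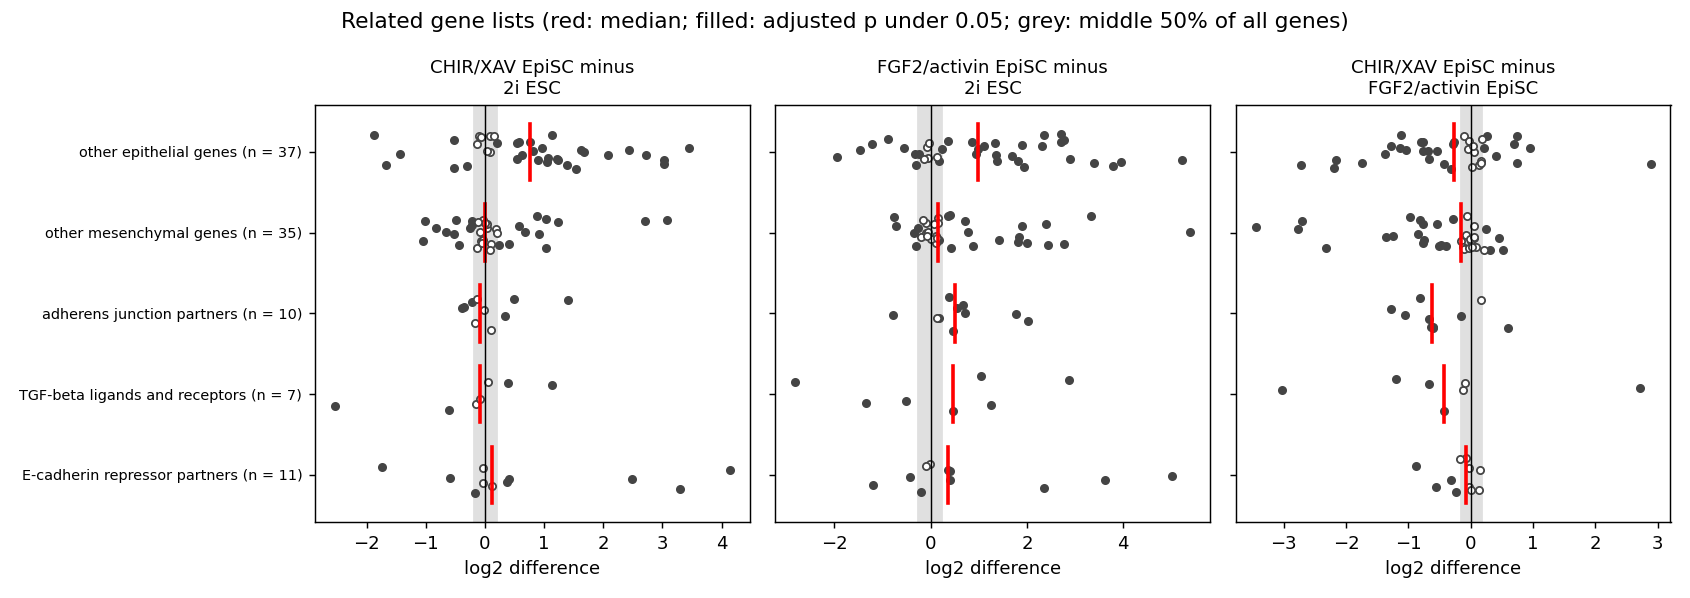
Log2 difference (horizontal axis) of single genes (points) in 5 related lists, for CHIR/XAV EpiSCs minus 2i ESCs, FGF2/activin EpiSCs minus 2i ESCs and CHIR/XAV minus FGF2/activin EpiSCs. Red lines mark list medians, filled points passed an adjusted p of 0.05 and the grey band holds the middle 50% of all genes; the median of the epithelial list lies to the right of the band in the comparisons with ESCs, at 0.76 for CHIR/XAV and 0.99 for FGF2/activin EpiSCs.

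Further mesenchymal genes also went both ways. More rose than fell in FGF2/activin EpiSCs against ESCs, and more were lower than higher in CHIR/XAV relative to FGF2/activin EpiSCs. Of 35 measured, 11 rose and 10 fell in CHIR/XAV EpiSCs against ESCs (median 0.00), not far from the 24.7% and 22.1% of all genes. In FGF2/activin EpiSCs 17 rose and 5 fell (median 0.16), against 27.8% and 33.5% of all genes. Between the EpiSC cultures 4 were higher and 17 lower in CHIR/XAV (median -0.16), against 20.5% and 21.1% of all genes. Acta2, smooth muscle actin, had 5.96 in CHIR/XAV EpiSCs, 9.41 in FGF2/activin EpiSCs and 6.98 in ESCs. It fell by 1.02 in CHIR/XAV EpiSCs and rose by 2.43 in FGF2/activin EpiSCs against ESCs, and the difference of CHIR/XAV from FGF2/activin EpiSCs was -3.45 (adjusted p = 6.8e-13, limma). Tagln (transgelin), another actin-associated gene, rose by 0.57 in CHIR/XAV EpiSCs and 3.34 in FGF2/activin EpiSCs. Thbs1, which encodes the matrix protein thrombospondin 1, rose by 2.70 in CHIR/XAV EpiSCs and 5.39 in FGF2/activin EpiSCs.

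Snai2 and Snai3, the paralogues of Snai1, are named here after their values were seen. Snai2 (Slug) had 6.41 in CHIR/XAV EpiSCs, 7.22 in FGF2/activin EpiSCs and 7.06 in ESCs, and fell by 0.66 in CHIR/XAV EpiSCs (adjusted p = 1.18e-05, limma). The difference in FGF2/activin EpiSCs was 0.16 (adjusted p = 0.11, limma). Snai3 had 5.84 in CHIR/XAV EpiSCs, 6.81 in FGF2/activin EpiSCs and 4.92 in ESCs, and rose in both EpiSC cultures, by 0.92 in CHIR/XAV and 1.89 in FGF2/activin. Twist1 and Twist2, other repressors also named after their values were seen, lay below or near the array median in all cultures, with means of 5.06 to 5.40 for Twist1 and 5.26 to 5.69 for Twist2.

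Most genes of the adherens junction were lower in CHIR/XAV than in FGF2/activin EpiSCs. Of 10 adherens junction genes 3 rose and 3 fell in CHIR/XAV EpiSCs against ESCs, the falls ranging from 2 to 5 with the scaling of the arrays. These counts lay near the shares of all genes, 24.7% higher and 22.1% lower. In FGF2/activin EpiSCs 8 rose and 1 fell, against 27.8% and 33.5% of all genes. In CHIR/XAV relative to FGF2/activin EpiSCs 1 was higher and 8 lower (median -0.62), against 20.5% and 21.1% of all genes. Vcl (vinculin), which links junctions to actin, had 9.82 in CHIR/XAV EpiSCs, 11.10 in FGF2/activin EpiSCs and 9.32 in ESCs, a rise of 0.50 in CHIR/XAV and 1.78 in FGF2/activin EpiSCs. Nectin1, an adhesion molecule of the same junctions, rose by 1.40 in CHIR/XAV and 2.03 in FGF2/activin EpiSCs. Nectin2 fell by 0.38 in CHIR/XAV EpiSCs and rose by 0.67 in FGF2/activin EpiSCs.

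Of the 6 other classical cadherins measured, 2 rose and 1 fell in CHIR/XAV EpiSCs, or 3 and 1 after quantile normalization, and 3 rose in FGF2/activin EpiSCs, or 2 after it. Between the EpiSC cultures 2 were higher and 1 lower in CHIR/XAV. All genes had 24.7% rises and 22.1% falls in CHIR/XAV EpiSCs and 27.8% and 33.5% in FGF2/activin EpiSCs. Between the EpiSC cultures 20.5% of all genes were higher and 21.1% lower. Cdh3 (P-cadherin) fell by 0.30 in CHIR/XAV EpiSCs and rose by 0.24 (adjusted p = 0.0204, limma) in FGF2/activin EpiSCs, a rise that missed the threshold after quantile normalization (adjusted p = 0.561, limma). Cdh4 rose by 0.85 in CHIR/XAV and 0.82 in FGF2/activin EpiSCs, and Cdh6 by 0.88 in CHIR/XAV and 0.41 in FGF2/activin EpiSCs, with ESC means of 5.61 for Cdh4 and 4.96 for Cdh6.

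TGF-beta ligands and receptors, inducers of the transition in many epithelia, went both ways. Of 7 genes 2 rose and 2 fell in CHIR/XAV EpiSCs against ESCs, or 4 fell when arrays were centred on the median of the 19938 genes. The shares of all genes there were 24.7% higher and 22.1% lower. In FGF2/activin EpiSCs 4 rose and 3 fell, against 27.8% and 33.5% of all genes. In CHIR/XAV relative to FGF2/activin EpiSCs 1 was higher and 4 lower, against 20.5% and 21.1%. Tgfb2, a ligand, had 5.28 in CHIR/XAV EpiSCs, 8.30 in FGF2/activin EpiSCs and 5.43 in ESCs. It rose by 2.87 in FGF2/activin EpiSCs (adjusted p = 4.53e-13, limma) and differed by -0.15 in CHIR/XAV EpiSCs (adjusted p = 0.132, limma). Eng (endoglin), a co-receptor, had 8.07 in CHIR/XAV EpiSCs, 5.36 in FGF2/activin EpiSCs and 8.17 in ESCs, and fell by 2.81 in FGF2/activin EpiSCs. Tgfbr3 (betaglycan) fell by 2.54 in CHIR/XAV EpiSCs and by 1.34 in FGF2/activin EpiSCs.

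Among 11 genes that work with or beside the E-cadherin repressors, 5 rose and 3 fell in CHIR/XAV EpiSCs against ESCs and 6 rose and 3 fell in FGF2/activin EpiSCs. Between the EpiSC cultures 4 were lower in CHIR/XAV, or 3 lower and 2 higher after quantile normalization. All genes had 24.7% rises and 22.1% falls in CHIR/XAV EpiSCs and 27.8% and 33.5% in FGF2/activin EpiSCs. Between the EpiSC cultures 20.5% of all genes were higher and 21.1% lower. The Id genes, inhibitors of basic helix-loop-helix factors, had the 3 largest rises over ESCs of this list in both EpiSC cultures. Id2 had 10.34 in CHIR/XAV EpiSCs, 11.21 in FGF2/activin EpiSCs and 6.20 in ESCs, a rise of 4.14 in CHIR/XAV EpiSCs (adjusted p = 2.4e-14, limma) and 5.02 in FGF2/activin EpiSCs (adjusted p = 3.52e-15, limma). Id1 rose by 3.30 in CHIR/XAV and 3.62 in FGF2/activin EpiSCs, and Id3 by 2.48 in CHIR/XAV and 2.35 in FGF2/activin EpiSCs.

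Markers of other cell types that carry Vim, Fn1, Cdh2 or Zeb2 were counted in the same way against ESCs. The shares of all genes to set beside these counts are 24.7% higher and 22.1% lower in CHIR/XAV EpiSCs. In FGF2/activin EpiSCs they are 27.8% higher and 33.5% lower. Of 14 fibroblast or feeder genes 1 rose and 4 fell in CHIR/XAV EpiSCs, with 2 to 5 falls over the alternatives, and 5 rose and 3 fell in FGF2/activin EpiSCs, where alternatives gave 3 to 6 rises and 1 to 5 falls. Their mean log2 value per array was 5.41 to 5.47 in CHIR/XAV EpiSCs, 5.58 to 5.59 in FGF2/activin EpiSCs and 5.49 to 5.54 in ESCs. Thy1, a surface glycoprotein of fibroblasts and other cells, had 7.21 in CHIR/XAV EpiSCs, 5.70 in FGF2/activin EpiSCs and 5.44 in ESCs, and rose by 1.77 in CHIR/XAV EpiSCs (adjusted p = 7.86e-10, limma). Acta2, given above, is also on this list and rose by 2.43 in FGF2/activin EpiSCs. Fbln1, a matrix gene, had 7.57 in CHIR/XAV EpiSCs, 7.71 in FGF2/activin EpiSCs and 9.11 in ESCs, and fell in both EpiSC cultures. Dcn and Lum, matrix genes of fibroblasts named after their values were seen, had means of at most 4.54 in each culture, below the array median. Of 12 primitive streak and mesoderm genes 4 rose and 3 fell in CHIR/XAV EpiSCs, with 1 to 4 falls over the alternatives, and 4 rose and 5 fell in FGF2/activin EpiSCs, with 3 to 7 falls over the alternatives. Their means per array were 5.39 to 5.48 in CHIR/XAV EpiSCs, 5.63 to 5.68 in FGF2/activin EpiSCs and 5.25 to 5.31 in ESCs. T, a streak gene also listed, had no match by symbol and is not counted. Eomes rose by 1.03 in CHIR/XAV and 2.32 in FGF2/activin EpiSCs, and Wnt3 by 0.97 in CHIR/XAV and 2.36 in FGF2/activin EpiSCs. Mixl1, Msgn1 and Evx1, named after their values were seen, fell in FGF2/activin EpiSCs, with differences of -0.41, -0.38 and -0.21. In CHIR/XAV EpiSCs Msgn1 and Evx1 fell, at -0.21 and -0.30, and Mixl1 was not called. Mesp1, a mesoderm factor named after its values were seen, had means of no more than 4.54.

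Of 10 neural genes 5 rose and 2 fell in CHIR/XAV EpiSCs and 5 rose and 3 fell in FGF2/activin EpiSCs, with means per array of 6.41 to 6.59 in CHIR/XAV EpiSCs, 6.52 to 6.59 in FGF2/activin EpiSCs and 5.80 to 5.91 in ESCs. Nes, a neural progenitor filament gene, rose by 2.38 in CHIR/XAV and 3.66 in FGF2/activin EpiSCs, and Fabp7 by 3.26 in CHIR/XAV and 1.73 in FGF2/activin EpiSCs. Pax6 and Tubb3, neural genes named after their values were seen, fell in both. The difference of Pax6 from ESCs was -1.75 in CHIR/XAV (adjusted p = 1.33e-09, limma) and -1.95 in FGF2/activin EpiSCs (adjusted p = 2.99e-10, limma), and Tubb3 differed by -0.65 in CHIR/XAV and by -0.73 in FGF2/activin EpiSCs. Of 14 extraembryonic endoderm genes 2 rose and 2 fell in CHIR/XAV EpiSCs, with 2 to 5 rises and 1 to 4 falls over the alternatives. In this list 6 rose and 6 fell in FGF2/activin EpiSCs, with 2 to 6 falls over the alternatives. Their means per array were 5.56 to 5.69 in CHIR/XAV EpiSCs, 5.87 to 5.94 in FGF2/activin EpiSCs and 5.58 to 5.63 in ESCs. Sparc, a matrix gene that the mesenchymal list also holds, rose by 1.04 in CHIR/XAV and 2.39 in FGF2/activin EpiSCs. Lama1, a laminin gene, fell in both, at -1.77 in CHIR/XAV (adjusted p = 3.28e-11, limma) and -1.79 in FGF2/activin EpiSCs (adjusted p = 2.26e-11, limma). Gata4, an endoderm factor named after its values were seen, fell in both, at -0.32 in CHIR/XAV and -0.54 in FGF2/activin EpiSCs. Of 9 trophoblast genes 4 rose and 3 fell in each EpiSC culture. In CHIR/XAV relative to FGF2/activin EpiSCs 7 of these genes were lower, against 21.1% of all genes. Their means per array were 5.62 to 5.76 in CHIR/XAV EpiSCs, 6.23 to 6.28 in FGF2/activin EpiSCs and 5.88 to 5.92 in ESCs. Of 8 definitive endoderm genes 2 fell in CHIR/XAV EpiSCs and 3 in FGF2/activin EpiSCs. The part of such cells in the changes of Vim, Zeb2, Cdh2 and Fn1 was not tested.

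Genes with a pattern most like that of Cdh1 over the 9 arrays, by Euclidean distance of gene-centred log2 values, were Vps53, Myl12a, Inppl1 and Pdcd6ip, at distances of 0.14 to 0.16. Myl12a, a myosin light chain gene, had 10.39 in CHIR/XAV EpiSCs, 10.82 in FGF2/activin EpiSCs and 9.85 in ESCs. Those most like Cdh2 were Wwp1, Fblim1, Rnf2 and Dop1a, at 0.20 to 0.21. Fblim1, an actin-adhesion gene, had 7.87 in CHIR/XAV EpiSCs, 8.75 in FGF2/activin EpiSCs and 8.50 in ESCs.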

How the data were processed

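Total RNA of 9 samples was measured on single-colour Affymetrix arrays. Per the submitters' processing notes the authors summarised each probe set by RMA in Partek, and the deposited table holds the resulting log2 values. No version is named in the sources used here. The annotation gives 1 gene symbol for 21789 of 35399 probe sets, none for 11989 and more than one for 1621. Single-symbol probe sets were used, with the brightest per gene over the 9 arrays, and symbols were updated through gene identifiers (19856 of 19938 genes matched). The differences were computed with limma 3.58.1 in R 4.3.3, all 9 arrays in 1 fit, without covariates, and adjusted by Benjamini-Hochberg over 19938 genes. Neighbours are the 2 nearest measured genes on each side. Brighter genes, used for chromosome medians and an added count of up to 10 neighbours on each side, exclude the dimmest 40%.

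Tested on simulated data for CHIR/XAV EpiSCs against ESCs over 19938 genes, the fit recovered 76.1% of changes of 0.5 log2 units and 98.5% and 100% of those of 1 and 2, with 11 false calls among 194. Only 67, 67 and 66 genes were changed by these sizes, with independent normal noise, whereas 46.7% of genes were called in the data. The rates are a check of the code and not the power of the fits reported here.

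The members and lists were chosen with earlier results of these data known, so list counts are descriptions. Named genes were the 10 members, up to 3 called genes of each list with the largest change, the measured miR-200 genes and the 4 nearest patterns of Cdh1 and Cdh2. Same-numbered arrays did not deviate together (correlations of -0.07 to 0.24). Alternatives were the mean of a gene's probe sets, leaving out dim genes, trend and robust variance, fits of the compared groups alone, centring, quantile normalization, array weights, a replicate block, a treat test and leaving out each array.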

Additional observations from a re-analysis of the deposited data

Results flagged for a closer look

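Cdh2 differed from ESCs in opposite directions in the EpiSC cultures, all 3 CHIR/XAV values lying below and all 3 FGF2/activin values above the ESC values. The difference between the cultures, which does not use the ESC arrays, was -0.84 log2 units in CHIR/XAV relative to FGF2/activin EpiSCs (SE 0.072, adjusted p = 4.16e-07, limma), with alternatives between -0.88 and -0.71. The fall in CHIR/XAV EpiSCs ranged from -0.66 to -0.51 over the alternatives and the rise in FGF2/activin EpiSCs from 0.10 to 0.35. The rise was not called after quantile normalization (adjusted p = 0.225, limma). Against a change of 1.5-fold, the limma treat test called neither the fall nor the rise (adjusted p = 1 each), and called the difference between the cultures (adjusted p = 0.0294). Both comparisons with ESCs share the ESC arrays.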

How the results depend on the processing

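Each of the 30 differences of a member was recomputed under 19 alternatives, 570 values in all. None reversed, 551 kept their side of the threshold, 18 lost the call and 1 gained it. Many of these alternatives could not reverse a difference. Leaving out dim genes, trend and robust variance and fits of the compared groups alone changed only how it was tested. So did the replicate block and the treat test. The mean of a gene's probe sets and leaving out an array of the culture not compared also left each difference as it was. The limma treat test against 1.5-fold called 2241, 2726 and 1175 genes for CHIR/XAV against ESCs, FGF2/activin against ESCs and CHIR/XAV against FGF2/activin, against 9320, 12218 and 8300. Under it, 1 mesenchymal gene was higher in CHIR/XAV EpiSCs than ESCs, and between the EpiSC cultures 0 mesenchymal genes were higher and 0 epithelial genes lower. It also ended the calls of Cdh1, Cdh2 and Vim in CHIR/XAV EpiSCs and of Cdh2 in FGF2/activin EpiSCs against ESCs, and of Cdh1, Esrp1, Zeb1 and Zeb2 between the EpiSC cultures. Median centring was done on all probe sets or, added after seeing the data, on the 19938 genes. Either left 0 mesenchymal genes higher in CHIR/XAV than FGF2/activin EpiSCs. Quantile normalization left 1 epithelial gene higher and 1 lower there, and moved the shift of the cadherin balance to 0.85 in FGF2/activin EpiSCs against ESCs and 0.28 between the EpiSC cultures. Leaving out single arrays gave 8438 to 9268, 10561 to 12416 and 6923 to 8418 calls, 1 to 2 epithelial genes lower and 0 to 1 mesenchymal genes higher between the EpiSC cultures, and, for the 3 comparisons in the order above, balance shifts of 1.07 to 1.18, 0.70 to 0.78 and 0.34 to 0.45. Esrp1 lost that call without CHIR/XAV replicate 1 (adjusted p = 0.0566, limma), CHIR/XAV replicate 2 (adjusted p = 0.0561, limma) or FGF2/activin replicate 2 (adjusted p = 0.0585, limma). Zeb1 lost it without CHIR/XAV replicate 3 (adjusted p = 0.131, limma), FGF2/activin replicate 1 (adjusted p = 0.117, limma) or FGF2/activin replicate 3 (adjusted p = 0.0626, limma). With the replicate block limma called 9325, 12202 and 8246 genes and no member's call changed. Centring on the median of the 19938 genes shifted the median difference from ESCs in CHIR/XAV EpiSCs from -0.031 to -0.132. There the share of calls that were higher moved from 52.7% to 35%. In FGF2/activin EpiSCs that share was 45.3% as deposited, 35% so centred and 59.6% without the dimmest 40% of genes. The cause of these shifts was not tested. Signal over background limits Snai1, the microRNA genes, the EpiSC values of Zeb1, the CHIR/XAV values of Zeb2 and the ESC values of Grhl2 and Zeb2. It also limits other genes given here with a culture near or below the array median, among them Krt19, Id1, Id3, Snai3 and Tgfb2.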
